A study of Mus musculus with 4 samples.

Results

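Chlorpromazine, a phenothiazine antipsychotic, was set against vehicle in the frontal cortex of mice on 1 dual-colour Agilent oligonucleotide array. The comparison takes the chlorpromazine array's ratios, 1 of 4 arrays in the study, with the features of a gene averaged. A ratio was available for 16359 of the 16504 genes measured on any array. Each male ddY mouse, of an outbred stock, was 13 weeks old, weighed 38 to 43 g and was injected intraperitoneally on 28 days, 1 time a day. The dose of chlorpromazine was 25 mg/kg. The other 3 arrays, used here as background, each set another drug against vehicle: 25 mg/kg of thioridazine, 1.25 mg/kg of olanzapine and 18.75 mg/kg of quetiapine. All drugs were given in dilute acetic acid in saline, and the controls were injected with vehicle. Drug RNA was labelled with cyanine 5 and vehicle RNA with cyanine 3 on every array, so a dye bias and a drug effect cannot be told apart. The number of mice behind each array, and any use of the same vehicle RNA on several arrays, are not given in the sources. No array has a replicate, so differences between chlorpromazine and vehicle carry no test. Values on the 4 arrays may also share their control RNA.

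Chlorpromazine blocks dopamine receptors of the D2 family, and also binds serotonin, histamine, muscarinic and alpha-adrenergic receptors. In the frontal cortex these receptors sit on pyramidal cells and interneurons and tune their response to ascending monoamine and cholinergic fibres. As a cationic amphiphilic molecule, chlorpromazine also collects in lysosomes, binds calmodulin and, in cultured cells, blocks clathrin-mediated endocytosis. The gene groups below follow these known properties, the cell types of the cortex, and the groups to which the most extreme genes belong.

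Values are log2 ratios, likely chlorpromazine over vehicle: 0 is no difference, 1 a 2-fold higher and -1 a 2-fold lower level. Neither the direction nor the log10 scale of the deposited values is stated for the table, and both are read from the dyes and the software. If the direction were the reverse, above and below would change places throughout. No signal intensities were given, so dim spots could not be removed and the level of cortical markers could not be checked, only their ratios. In bulk tissue, fewer cells of a type and less RNA per cell cannot be told apart.

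The chlorpromazine profile was narrow. Over genes, its log2 ratios had a standard deviation of 0.33 around a median of 0.01, against standard deviations of 0.47 with thioridazine, 0.59 with olanzapine and 0.43 with quetiapine. At least 2-fold above vehicle lay 130 genes (0.795% of those measured), and at least 2-fold below lay 147 (0.899%). At 1.5-fold the counts were 589 above (3.6%) and 542 below (3.31%). Scaling all arrays to a common spread gave 2-fold counts with chlorpromazine of 324 above and 307 below. Read as log2 already, the deposited values would leave 2 genes above and 1 below.

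The gene farthest above vehicle was Sdhd, the subunit that helps anchor succinate dehydrogenase, complex II of the respiratory chain, in the inner mitochondrial membrane. Its log2 ratio was 4.72 with chlorpromazine, a 26.3-fold difference, against 2.70 with thioridazine, -4.05 with olanzapine and 4.62 with quetiapine. The same feature was thus far above vehicle on 3 arrays and far below it on the fourth. The other subunits did not share the ratio: with chlorpromazine Sdha, the flavoprotein, was at -0.28, Sdhb, the iron-sulfur subunit, at -0.26 and Sdhc, the other membrane anchor, at 0.15. Without Sdhd, the median of complex II was -0.26. The promoter window of Sdhd, from 250 bases before to 50 after the start in RefSeq (GRCm38.p6, chr9:50603800-50604099, minus strand), is shown because it overlaps that of Timm8b, a chaperone of mitochondrial protein import, over 151 bases, given in capitals.
Sdhd: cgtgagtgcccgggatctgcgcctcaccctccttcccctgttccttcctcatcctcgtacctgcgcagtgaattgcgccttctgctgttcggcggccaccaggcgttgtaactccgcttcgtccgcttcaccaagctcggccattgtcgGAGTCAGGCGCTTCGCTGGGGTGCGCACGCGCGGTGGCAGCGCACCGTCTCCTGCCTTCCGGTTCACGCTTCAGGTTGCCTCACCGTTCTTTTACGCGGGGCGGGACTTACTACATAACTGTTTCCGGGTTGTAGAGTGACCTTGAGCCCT
Timm8b, whose window covers chr9:50603651-50603950, had log2 ratios of 0.19 with chlorpromazine and of 0.15, 0.27 and 0.28 with thioridazine, olanzapine and quetiapine. The neighbour that shares these bases was therefore close to vehicle on all 4 arrays.

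Cd69, a membrane antigen of newly activated lymphocytes, came next at 4.02 with chlorpromazine, against 0.18 with thioridazine, 0.01 with olanzapine and -1.26 with quetiapine. No other array had it above vehicle by 1.5-fold. Bbs1, a subunit of the BBSome, which carries membrane proteins in and out of primary cilia, was at 2.02 with chlorpromazine, against 0.41, 0.06 and -0.36 with thioridazine, olanzapine and quetiapine. Ocel1 was at 2.87 with chlorpromazine, against 0.06, 0.25 and 1.86 on the same 3 arrays. Dnajc27, a small GTPase with a J domain, was at 2.14 with chlorpromazine, against 0.64, 1.41 and 1.81, so that its ratio was above vehicle on all 4 arrays.

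The next genes above vehicle fell in several functions. Eaf2, a partner of the elongation factor ELL, was at 1.84, the nuclear import receptor Ipo9 at 1.81 and the zinc finger gene Zswim5 at 1.66. Tap2, of the transporter that loads peptides on MHC class I, was at 1.65 with chlorpromazine, against 2.39 with thioridazine, 2.17 with olanzapine and 0.50 with quetiapine. Matrix and plasma proteins were represented by Ecm2 at 1.62, by fibronectin, Fn1, at 1.61 and by the vitamin E carrier afamin, Afm, at 1.61. Fn1 was also above vehicle with thioridazine, at 1.06, olanzapine, at 1.30, and quetiapine, at 0.78, and Afm lay between 1.18 and 1.26 there. Cdc26, a subunit of the anaphase-promoting complex, was at 1.61, Chrng, the fetal subunit of the muscle acetylcholine receptor, at 1.604 and Adcy8, a calmodulin-stimulated adenylyl cyclase, at 1.58.

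The gene farthest below vehicle was Pkp1, plakophilin of the desmosome, at -4.05 with chlorpromazine, a level 16.6-fold lower. Its ratio was 0.31 with thioridazine, 0.04 with olanzapine and 0.59 with quetiapine, and no other array had it below vehicle. Tfeb, the transcription factor that drives lysosomal and autophagy genes, was at -3.22 with chlorpromazine, against 0.80, 0.24 and 3.15 with thioridazine, olanzapine and quetiapine. The chlorpromazine and quetiapine ratios of Tfeb were thus both far from vehicle and on opposite sides of it. Tlr2, a receptor for bacterial lipoproteins on microglia and other myeloid cells, was at -2.69 with chlorpromazine, against -0.10, 0.04 and 0.99. Tent4b, a noncanonical poly(A) polymerase, was at -2.63 with chlorpromazine, against -0.28, -0.49 and -0.36, below vehicle everywhere but far below it on 1 array.

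Ccl19, a chemokine that attracts T cells and dendritic cells, was at -2.53 with chlorpromazine, against -0.95 with thioridazine, -2.31 with olanzapine and -0.70 with quetiapine. Il1rap, the shared co-receptor of the interleukin-1 family, was at -2.24 with chlorpromazine, against -3.15, -2.41 and -1.66. Tacr3, the neurokinin B receptor, was at -1.83 with chlorpromazine, against -1.92, -1.89 and -1.54. These 3 genes had ratios below vehicle on all 4 arrays. Stx17, the syntaxin that fuses autophagosomes with lysosomes, was at -2.21, Rpgrip1l, of the ciliary transition zone, at -2.02, and both were also below vehicle on the other arrays. Abat, the transaminase that breaks down GABA, was at -1.93 with chlorpromazine and -0.01 with quetiapine, and had no value on the remaining arrays. Rbm47, an RNA-binding protein, was at -2.22, Gtsf1, of the piRNA pathway, at -2.03, the vomeronasal receptors Vmn1r15 and Vmn1r219 at -2.66 and -1.93, and cardiac troponin T, Tnnt2, at -1.87. A pair of genes of like ratio are not counted among the 15 lowest: the clone-named 5430427O19Rik, at -2.05, and Lmod2, a muscle gene tied with Tacr3 at -1.83.

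**Figure D1:**
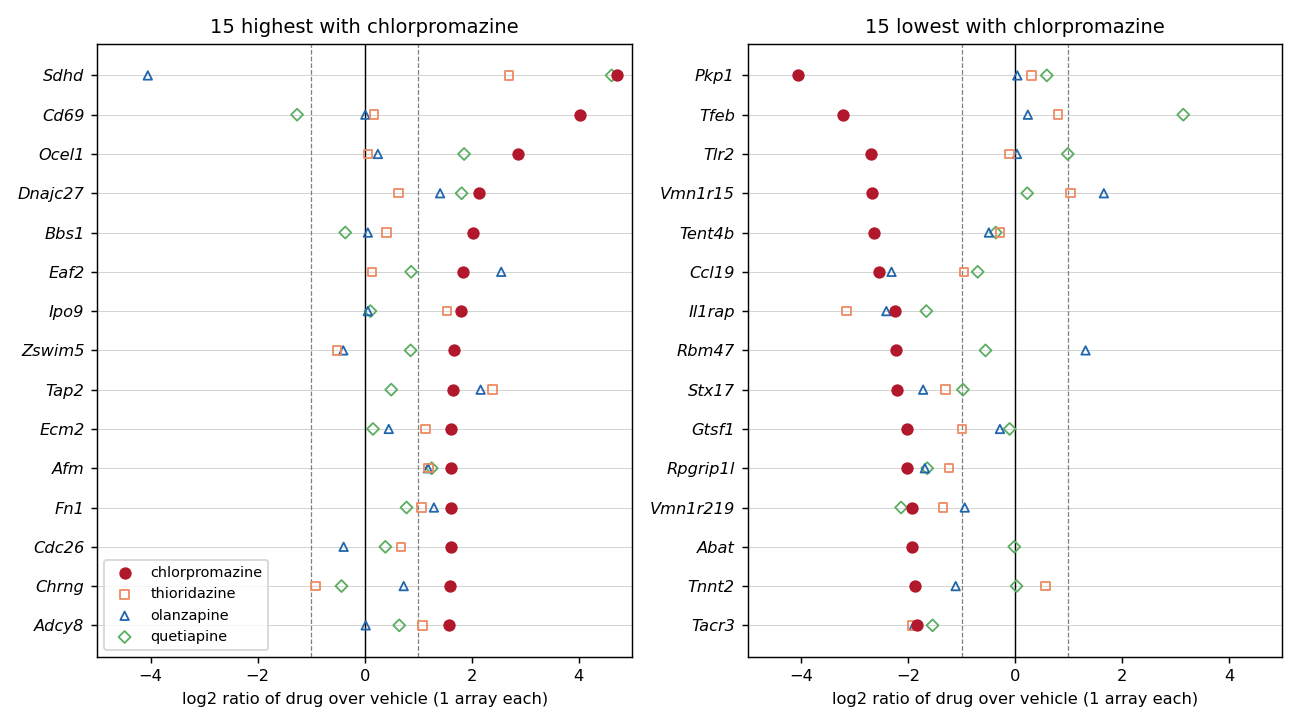
Log2 ratio of drug over vehicle (horizontal axis) for the 15 genes highest and the 15 lowest with chlorpromazine, clone-style names left out, 1 point for each array, with dashed lines at 2-fold. Filled circles are chlorpromazine; Sdhd stands at 4.72 and Pkp1 at -4.05, and for Cd69, Bbs1, Pkp1 and Tlr2 the open symbols of the other drugs lie apart from the filled ones.

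The genes past 2-fold were divided between those seen on 1 array and those seen on several. Of the 130 above vehicle with chlorpromazine, 122 had a value on all arrays; 63 of these were 2-fold above on at least 1 other array, 6 were so on all 4, and 13 stayed within 1.5-fold of vehicle on the other 3. Of the 147 below, 127 had a value on all arrays; 72 were 2-fold below elsewhere too, 24 on all 4, and 16 stayed within 1.5-fold on the other 3. Arrays that share vehicle RNA would share such values, so the overlap is given as a description. Over all genes, 323 of 16327 were 2-fold above vehicle with thioridazine, 763 of 16435 with olanzapine and 233 of 16240 with quetiapine. Those 2-fold below were 415, 547 and 375 on the same arrays. The overlap that these shares alone would give was not computed.

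All 30 of the genes at the extremes were read by a single feature. The spread of repeated measurements on the chlorpromazine array was available in 2 ways. First, 48 sequence records were spotted 10 or 11 times, and their spots had a median standard deviation of 0.06 (0.02 to 0.32). Their means ran from -0.74 to 0.65, and none reached 2-fold. Ntng1, netrin-G1, which steers thalamocortical axons, averaged -0.74 ± 0.08 with chlorpromazine, against 0.77 ± 0.13 with thioridazine, -0.53 ± 0.13 with olanzapine and -0.71 ± 0.12 with quetiapine (SD over 10 spots). The peroxidase Prdx2 averaged -0.48 ± 0.03 with chlorpromazine, the granin Chgb, of dense-core vesicles, 0.48 ± 0.05, and Bambi, a decoy receptor of the TGF-beta family, 0.65 ± 0.15. These 4 means lay beyond the spread of their own spots, which is technical and covers neither mice nor labelling.

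Second, 1161 genes had 2 or more features, under 1 or several sequence records. On the chlorpromazine array all features lay on 1 side of vehicle for 588 of them (50.6%). Unrelated features would put a gene with 2 of them on 1 side about as often. Of 51 genes with any feature at 2-fold, 1 had every feature there: Ube2s, an E2 enzyme that extends ubiquitin chains for the anaphase-promoting complex. Its features read -1.21 and -1.51 with chlorpromazine, against 0.32 and 0.65 with thioridazine, 0.05 and 0.27 with olanzapine, and -0.07 and -0.12 with quetiapine. The cell adhesion gene Nrcam shows the more common case, with features at -2.48 and -0.10. Smo, the Hedgehog signal transducer, had features at -1.82 and 0.11, and Nck2, an adaptor of tyrosine kinase signalling, at 0.17 and 1.69. At 1.5-fold, 5 of 176 genes had every feature past it; besides Ube2s these were 2610507B11Rik (0.79 and 0.94), the heterochromatin protein Cbx3 (0.72 and 0.63), the chromatin protein Hmgb1 (0.81 and 0.59) and the cohesin loader Nipbl (0.61 and 0.73). On the other arrays 1 of 130 genes with thioridazine, 4 of 216 with olanzapine and 3 of 90 with quetiapine had every feature at 2-fold.

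**Figure D2:**
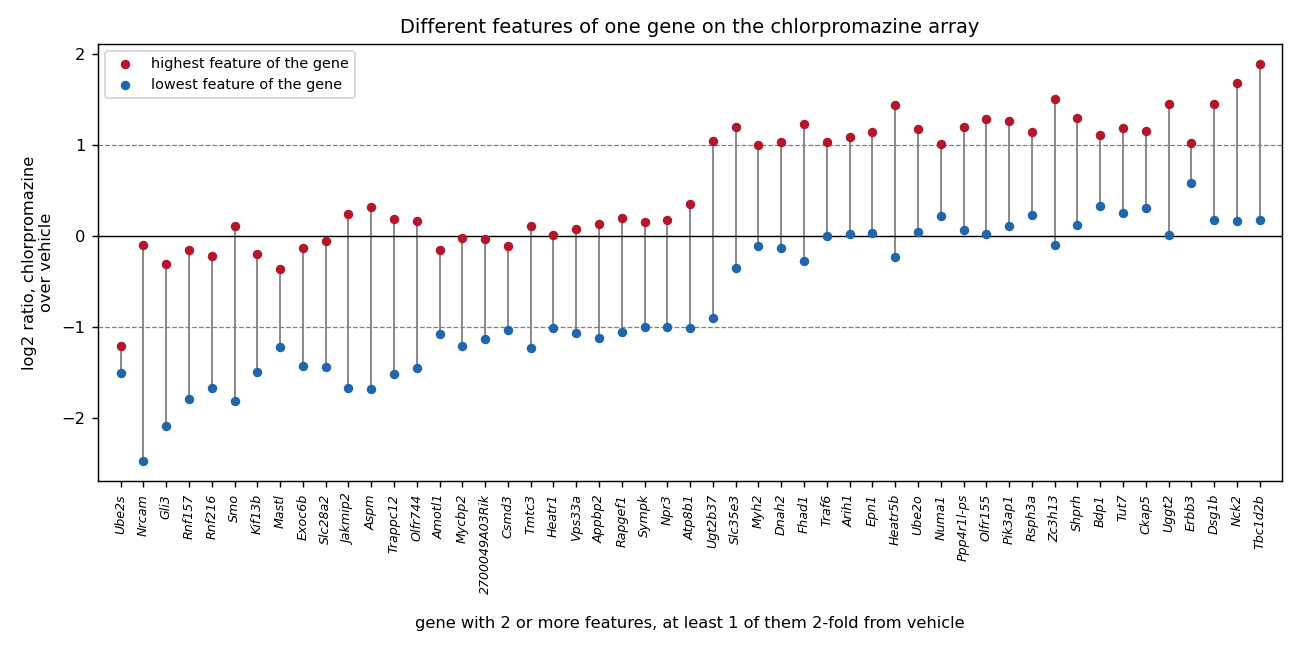
Log2 ratio with chlorpromazine (vertical axis) of the highest and lowest feature of each of the 51 genes that have 2 or more features and at least 1 of them 2-fold from vehicle (dashed lines). A grey line joins the features of a gene; both ends lie past the dashed line for Ube2s alone, while for most genes the other end lies near 0.

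The receptors that chlorpromazine binds had ratios near vehicle, with a few exceptions. Over the 30 measured genes of the dopamine, serotonin, histamine, muscarinic and adrenergic lists the median was 0.04, with 3 genes 1.5-fold above vehicle (3.6% of all genes) and 1 below (3.31%). All 4 measured dopamine receptors lay above 0, as did 51.4% of all genes: Drd4 at 0.29, Drd1 at 0.17, Drd2 at 0.08 and Drd3 at 0.04. The receptor Drd2, the main target of the drug class, was at 0.24 with thioridazine, 0.31 with olanzapine and 0.17 with quetiapine. None of the 4 differed from vehicle by as much as 1.5-fold with chlorpromazine.

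Among serotonin genes, 7 of 15 lay above 0 (51.4% of all genes). Htr7, a receptor coupled to cyclic AMP formation, was at 1.05 with chlorpromazine, against 0.47 with thioridazine, -0.25 with olanzapine and 0.45 with quetiapine. Htr3a, the ion channel subunit of a class of cortical interneurons, was at 0.66 with chlorpromazine, against -0.37, 0.57 and -0.18. Htr2a, the receptor that many antipsychotics block on pyramidal cells, was at 0.53 with chlorpromazine, against -0.36, 0.41 and -0.01. For these 3 receptors the chlorpromazine ratio was the highest of the 4 arrays. Below vehicle with chlorpromazine were Htr1f at -0.62 and Htr2b at -0.51, both also below it on the other arrays. Of 9 adrenergic receptors 2 were measured: Adra1b, an alpha-1 receptor through which phenothiazines lower blood pressure, at 1.15 with chlorpromazine, against 0.71, -0.07 and 0.97, and Adra2c at 0.10. The histamine receptors ran from -0.50 for Hrh3, the inhibitory receptor on nerve endings, to 0.04 for Hrh4, with Hrh1, the target behind sedation, at -0.22. Muscarinic receptors ran from -0.15 for Chrm1 to 0.35 for Chrm3.

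**Figure D3:**
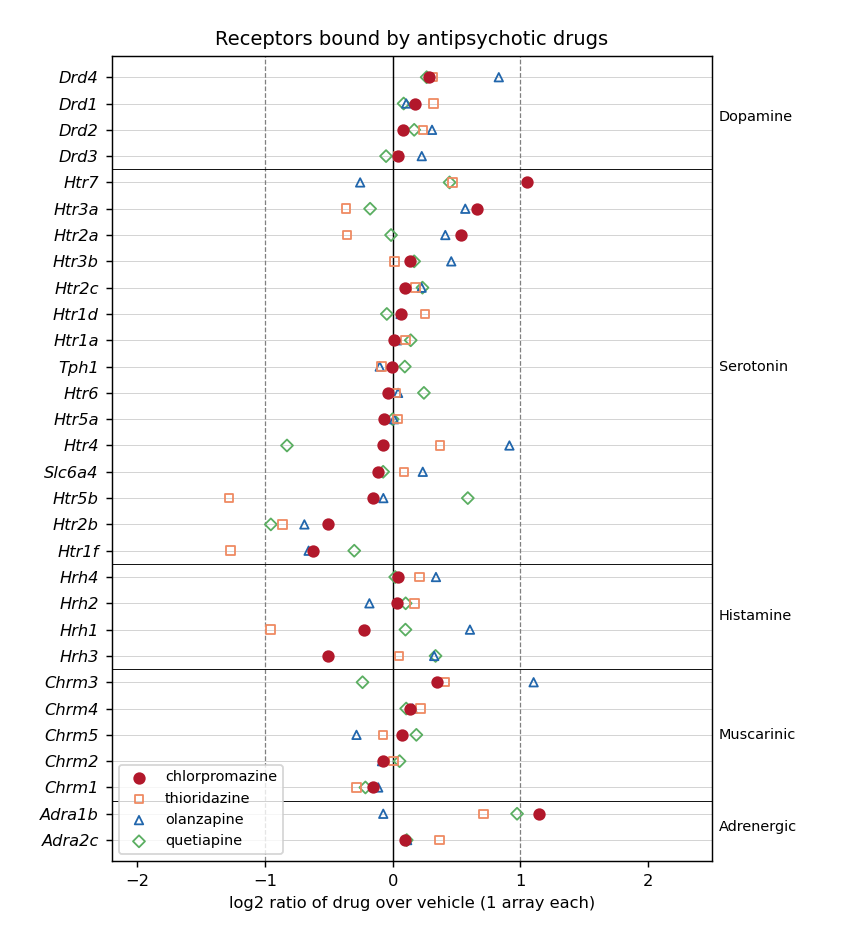
Log2 ratio of drug over vehicle (horizontal axis) for the 30 measured genes of the receptor lists, grouped by transmitter, 1 point for each array, with dashed lines at 2-fold. With chlorpromazine (filled circles) the dopamine receptors lie between 0.04 and 0.29, and Htr7 and Adra1b lie past 2-fold.

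Genes that make, move and break down dopamine lay mostly below 0 (7 of 9, against 48.6% of all genes), with a median of -0.08. Ddc, the decarboxylase of dopamine and serotonin synthesis, was at -0.56 with chlorpromazine, against -0.86, -0.997 and -0.95 with thioridazine, olanzapine and quetiapine. Th, the rate-limiting enzyme, was at 0.19 with chlorpromazine, against 1.17, -0.12 and 0.46, and the dopamine transporter Slc6a3 at 0.34, against 0.07, -1.01 and 1.17. Among 13 partners of dopamine signalling, Rgs9, a brake on G-protein signalling in striatal neurons, was at -0.61 and Arrb2, the arrestin that links the D2 receptor to Akt, at -0.46. Adcy5, the striatal adenylyl cyclase, was at 0.46, and Ppp1r1b, the phosphatase inhibitor DARPP-32, at 0.43. The kinases Akt1, Gsk3a and Gsk3b were at 0.25, -0.00 and 0.13. Between Rgs9 and Adcy5, which work in the same neurons, the ratios differed in side.

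The intracellular targets of the molecule had medians near 0. For 24 calmodulin genes and calmodulin-dependent enzymes it was -0.02, with Adcy8 at 1.58 as the 1 member 1.5-fold above vehicle (3.6% of all genes). None was 1.5-fold below (3.31%), and the kinase Camk4 came next above at 0.54. Adcy8 was at 1.09 with thioridazine, 0.02 with olanzapine and 0.65 with quetiapine. The calmodulin genes Calm2 and Calm3 were at 0.03 and -0.09, and the kinase subunits Camk2a and Camk2b at -0.04 and 0.26. For 32 genes of clathrin-mediated endocytosis the median was 0.02. Amph, amphiphysin, which recruits dynamin to the neck of a coated pit at synapses, was at -1.06 with chlorpromazine, against -0.43, 0.01 and 0.06, while Snx9, which also binds dynamin, was at 1.09, against 0.52, -0.26 and -0.13. Epn1, an epsin that bends the membrane, averaged 0.59, with features at 0.04 and 1.15. The coat itself was close to vehicle, with the heavy chain Cltc at -0.33 and the light chains Clta and Cltb at 0.09 and 0.02.

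Lysosomal genes as groups had medians near vehicle, while single members such as Lipa, Psap and Tfeb lay farther from it. Of 37 lysosomal hydrolases 24 lay below 0 (48.6% of all genes), with a median of -0.04, 3 were 1.5-fold above vehicle (3.6% of all genes) and 2 below (3.31%). Lipa, the acid lipase that frees cholesterol from its esters, was lowest at -1.28 with chlorpromazine, against 0.15, 0.63 and -0.04 with thioridazine, olanzapine and quetiapine. Ids, iduronate sulfatase, was at -0.68. Psap, the precursor of the saposins, was at 0.83 with chlorpromazine, against 0.22, -0.05 and -0.26, and Fuca1, the fucosidase, at 0.73, against -0.47, -0.37 and -0.38. For Fuca1 the chlorpromazine array was the only 1 of 4 above vehicle. The 20 membrane proteins and transporters had a median of -0.05 and none reached 1.5-fold, and the 20 proton pump subunits had 0.07, with Atp6v0b lowest at -0.85. Among 20 genes of the MiT family of transcription factors and lysosome regulators, 16 lay below 0 (48.6% of all genes) with a median of -0.11, and Tfeb apart they ran from -0.58 for Rptor, the mTORC1 scaffold, to 0.74 for Lamtor2, of the lysosomal Ragulator.

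TFEB and its relatives bind the E-box letters CACGTG. These letters stood in the RefSeq promoter window of 11 of 32 lysosomal hydrolases with a window (34.4%), against 10.3% of the 13111 measured genes with one. With chlorpromazine 8 of those 11 hydrolases lay below 0, and 13 of the 21 without the letters (medians -0.21 and -0.03). Over all measured genes with a window, 674 of the 1352 with the letters lay below 0. The medians of all these genes were 0.001 with and 0.007 without the letters. Of the lysosomal membrane genes 5 of 17 had the letters (3 of these 5 below 0, medians -0.06 with and -0.07 without them), and of the proton pump genes 4 of 14 (2 of these 4 below 0, medians -0.02 and 0.10). Outside the lysosome, 5 of 15 ATP synthase genes had them too. The window of Ctsd, the protease cathepsin D, which was at -0.49 with chlorpromazine (chr7:142387778-142388077, minus strand), is shown as an example, with the E-box letters in capitals.
Ctsd: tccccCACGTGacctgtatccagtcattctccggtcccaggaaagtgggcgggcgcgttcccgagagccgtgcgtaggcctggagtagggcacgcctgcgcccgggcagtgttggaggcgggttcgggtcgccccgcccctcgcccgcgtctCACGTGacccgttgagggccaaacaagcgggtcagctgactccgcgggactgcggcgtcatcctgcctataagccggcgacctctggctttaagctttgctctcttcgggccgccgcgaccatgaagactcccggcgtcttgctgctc
The ratio of Ctsd was -0.18 with thioridazine, -0.11 with olanzapine and -0.13 with quetiapine. It lay below vehicle on all 4 arrays and farthest on the chlorpromazine array.

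Autophagy genes had a median of 0.05 over 30 genes and members on both sides. Ulk1, the kinase that starts autophagosome formation, was at -1.35 with chlorpromazine, against -1.15, -0.14 and -0.20, and Map1lc3a, of the LC3 family, at -0.71, against 0.77, -0.39 and -0.32. Gabarapl2, of the related GABARAP family, was at 1.57 with chlorpromazine, against 0.85, -0.05 and -0.19, and Atg7, the enzyme that activates these proteins for lipid conjugation, at 0.62. Cholesterol synthesis genes, which cationic amphiphilic drugs affect in cultured cells, had 7 of 31 members 1.5-fold below vehicle (3.31% of all genes) and 1 above (3.6%). Their median was -0.11 with chlorpromazine, and lower on the other arrays, at -0.18 with thioridazine, -0.22 with olanzapine and -0.20 with quetiapine. The members 1.5-fold below with chlorpromazine included Fdps, farnesyl diphosphate synthase, at -0.91 and the kinase Mvk at -0.84. Hmgcs1, which makes HMG-CoA, was at -0.76 and Dhcr7, which catalyses the final step, at -0.71. Hmgcs1 was at -0.22 with thioridazine, -0.41 with olanzapine and -0.65 with quetiapine. Lss, lanosterol synthase, stood on the other side at 1.18 with chlorpromazine, against 1.24, 1.41 and 1.09.

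Subunits of the respiratory chain lay below vehicle by small amounts. Over the 77 genes of complexes I, III and IV with cytochrome c and ATP synthase, 54 were below 0 (70.1%, against 48.6% of all genes), the median was -0.13, 3 were 1.5-fold below vehicle (3.31% of all genes) and 0 above (3.6%). The same genes had medians of -0.10 with thioridazine, 0.03 with olanzapine and -0.11 with quetiapine. Complex III and complex IV had the lowest medians with chlorpromazine, at -0.21 and -0.22, with 15 of 18 complex IV genes below 0. Ndufa11, a subunit of complex I, was lowest at -0.82 with chlorpromazine, against -0.71, 0.65 and 0.03. Ndufab1, the acyl carrier of the complex, was at -0.72 and Cyct, the testis form of cytochrome c, at -0.77. Atp5b, the catalytic beta subunit of ATP synthase, was highest at 0.44. Tricarboxylic acid cycle enzymes had a median of 0.05, with Idh2 at 1.08 and citrate synthase, Cs, at -0.59, and glycolytic enzymes a median of -0.05.

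NRF1, an activator of respiratory genes, binds a core searched here on both strands as GCGCA, any base, then GCGC. It stood in the window of 7 of 31 complex I genes, 7 of 15 ATP synthase genes, and of 1 of 5 complex III and 1 of 14 complex IV genes, against 8.63% of the measured genes. With chlorpromazine the median was -0.19 for complex I genes with the core and -0.07 for those without it. It ran the other way in ATP synthase, at -0.11 with the core and -0.16 without, and the single complex III and complex IV genes with the core were at 0.03 and -0.01, against medians of -0.19 and -0.30 without. Over all measured genes with a window the medians were -0.02 with the core and 0.01 without it. The window of Ndufa11 (chr17:56717512-56717811, plus strand) is shown with the core in capitals.
Ndufa11: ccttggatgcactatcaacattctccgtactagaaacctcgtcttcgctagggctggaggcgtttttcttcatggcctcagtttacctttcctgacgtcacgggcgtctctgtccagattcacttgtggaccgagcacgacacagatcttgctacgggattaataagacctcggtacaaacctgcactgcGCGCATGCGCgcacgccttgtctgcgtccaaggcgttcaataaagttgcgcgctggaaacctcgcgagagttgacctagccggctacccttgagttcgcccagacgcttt
A match of letters is a description and not evidence of binding.

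Ribosomal protein genes were also lower by small amounts. Of the 69 cytosolic ribosomal protein genes 55 lay below 0 with chlorpromazine (48.6% of all genes), with a median of -0.12, against medians of 0.03 with thioridazine, 0.05 with olanzapine and 0.01 with quetiapine. Rps2 was lowest at -0.90 with chlorpromazine, against -0.41, -0.01 and -0.55, followed by Rpl10 at -0.58. Rps14 was highest at 0.68 with chlorpromazine, against 0.33, -0.02 and 0.45. One gene was 1.5-fold below vehicle (3.31% of all genes) and 1 above (3.6%), so that the list's median came from many small ratios. Of the 70 mitochondrial ribosomal protein genes 52 lay below 0 (again against 48.6%), with a median of -0.15, against -0.16, -0.04 and -0.14. Mrps18b was at -1.32 and Mrpl47 at -0.997 with chlorpromazine. The 30 proteasome subunits had a median of -0.07, none of them 1.5-fold from vehicle.

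The ETS core CCGGAAG, which GABP and other ETS factors bind in promoters of such genes, was searched on both strands, and matches of different motifs were counted independently where they overlapped. It stood in the window of 24 of 56 cytosolic and 22 of 62 mitochondrial ribosomal protein genes, against 14.8% of the measured genes. With chlorpromazine the cytosolic genes had medians of -0.08 with the core and -0.14 without it, and the mitochondrial genes, on the contrary, -0.21 with it and -0.12 without. All measured genes with a window had medians of -0.01 with the core and 0.01 without it. The window of Rps2 (chr17:24719813-24720112, plus strand) is shown with the core in capitals, which lies on the opposite strand.
Rps2: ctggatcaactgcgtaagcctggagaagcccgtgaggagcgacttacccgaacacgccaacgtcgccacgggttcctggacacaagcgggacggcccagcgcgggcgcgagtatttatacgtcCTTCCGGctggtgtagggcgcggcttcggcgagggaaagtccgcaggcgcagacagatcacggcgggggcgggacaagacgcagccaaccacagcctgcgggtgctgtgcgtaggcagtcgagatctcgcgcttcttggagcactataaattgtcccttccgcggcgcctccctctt

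**Figure D4:**
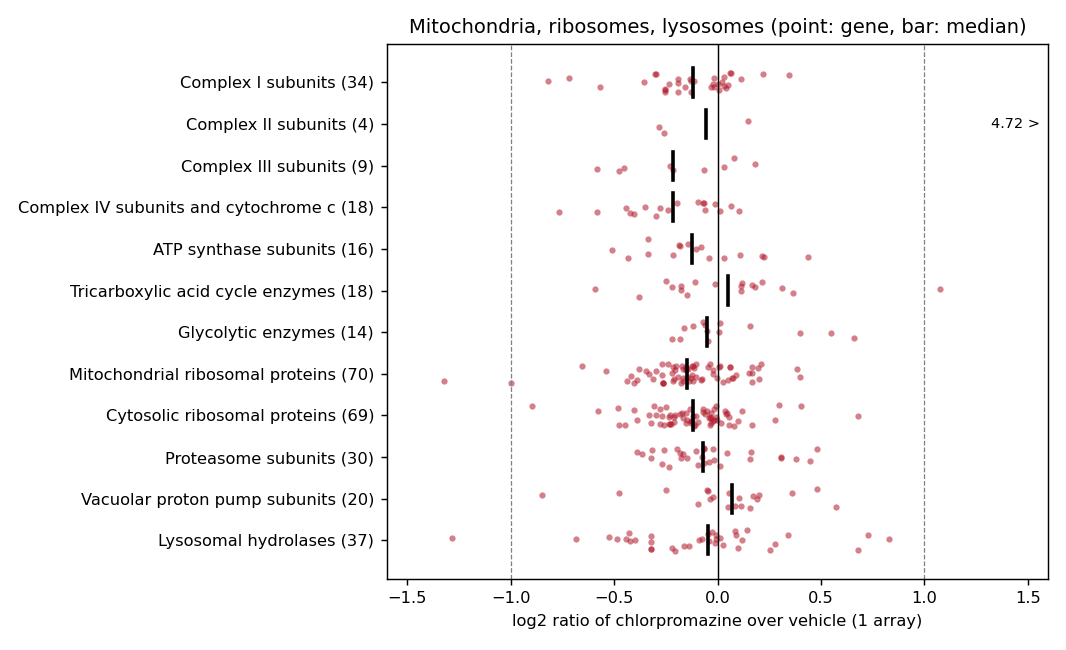
Log2 ratio with chlorpromazine (horizontal axis) for genes of the respiratory chain, metabolism, ribosomes, proteasome and lysosome, 1 point for each gene, with the number measured in brackets, a black bar at each list's median and dashed lines at 2-fold. Sdhd lies outside the axis, its value of 4.72 being written at the edge; the bars of complexes I, III and IV, ATP synthase and both ribosomes lie between -0.22 and -0.12.

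Neuronal genes as groups were near vehicle. The median was 0.02 for genes of GABA synthesis, transport and reception, 0.04 for glutamate receptors, 0.01 for neuropeptides and 0.02 for the synaptic vesicle release machinery. Within the GABA list Gabbr1, a subunit of the metabotropic GABA receptor, was at -1.75 with chlorpromazine. Its ratio was -0.07 with thioridazine, -0.89 with olanzapine and -0.41 with quetiapine. Gabbr1 and Abat were the 2 of 23 members 1.5-fold below vehicle (3.31% of all genes), and 0 were 1.5-fold above (3.6%). Among glutamate receptors the NMDA subunits Grin3b and Grin2d were highest at 0.66 and 0.64, and the kainate subunit Grik4 lowest at -0.56. Pdyn, the precursor of dynorphin, was at -0.72 with chlorpromazine, against -1.06, 0.62 and -0.20. The potassium channels Kcna1 and Kcna2, which set axonal excitability, were at 0.82 and 0.74 with chlorpromazine, and Kcnb2 was at -0.77.

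Immediate early genes, which neurons transcribe within minutes of activity, had a median of -0.03 over 32 genes, with 1 of them 1.5-fold above vehicle (3.6% of all genes) and 4 below (3.31%). Egr2 was at -1.10 with chlorpromazine, against -0.73, -0.23 and -2.40 with thioridazine, olanzapine and quetiapine. Arc, whose protein acts at the synapse, was at -0.78, against -0.96, -0.44 and -2.56. Ier5 was at -0.84 and Klf10 at -0.73, while Fos was at -0.43 and Ier3 at 0.60. For Egr2, Arc and Ier5 all 4 arrays lay below vehicle, and the quetiapine ratio was the lowest.

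Markers of the cell types of the cortex describe the tissue on both sides of the ratio. Of 25 measured microglia and macrophage markers 20 lay below 0 with chlorpromazine (48.6% of all genes), with a median of -0.22, against medians of 0.25 with thioridazine, -0.00 with olanzapine and -0.01 with quetiapine. Trem2, a lipid-sensing receptor of microglia, was at -0.92 with chlorpromazine, against -0.10, -0.02 and 0.07, and its signalling adaptor Tyrobp at -0.73, against -0.04, -0.17 and 0.05. The complement gene C1qa was at -0.72 with chlorpromazine, against 0.76, 0.08 and 1.15. The other C1q genes did not share its ratio, with C1qb at -0.04 and C1qc at 0.18 with chlorpromazine. Trem2, Tyrobp and C1qa were the members 1.5-fold below vehicle (3.31% of all genes), and none was 1.5-fold above (3.6%). The microglial receptor Cx3cr1 was at 0.06, and the highest was Cd163, of macrophages at the brain's borders, at 0.23.

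Astrocyte markers had a median of 0.12 with 16 of 23 above 0 (51.4% of all genes). Fgfr3 was at 0.76, the lipase Pla2g7 at 0.69 and the glutamate transporter Slc1a3 at 0.65 with chlorpromazine. Pla2g7 was at -0.67 with thioridazine, -0.82 with olanzapine and -0.72 with quetiapine, so that the chlorpromazine array stood alone above vehicle. Gli3, a Hedgehog transcription factor, averaged -1.20, with features at -2.09 and -0.30. Myelin and oligodendrocyte markers had a median of 0.14: Nkx6-2, a transcription factor of the lineage, was at 1.21 and Mbp, myelin basic protein, at 0.74 with chlorpromazine, against -0.20, -0.07 and -0.60 for Mbp. Olig2 was lowest at -0.60. Precursor markers had a median of -0.07, with 7 of 11 below 0 (48.6% of all genes).

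Markers of the vessel wall had a median of 0.13, with 19 of 27 above 0 (51.4% of all genes), 4 of them 1.5-fold above vehicle (3.6%) and none below. Cdh5, the cadherin of endothelial junctions, was at 0.68 with chlorpromazine, against -0.23, 0.29 and -0.27 with thioridazine, olanzapine and quetiapine. Abcb1a, the drug efflux pump of the blood-brain barrier, was at 0.65, against -0.83, -1.19 and 0.40, and Vtn, a pericyte gene, at 0.66. Smooth muscle and fibroblast markers had a median of 0.12, with the filament gene Des at -1.73, and choroid plexus and ependymal markers one of 0.10. Red cell genes had a median of 0.03 and neutrophil granule genes of 0.01. Lymphocyte genes had a median of 0.09, with Cd4 at 0.79 and Gzma at 0.70 behind Cd69; without Cd69 the median was 0.09. Striatal markers, which frontal cortex dissections can carry, had a median of 0.24 over 11 genes. Of these, 3 lay below 0 (48.6% of all genes), with Rgs9 lowest at -0.61 and Tac1 next at -0.38. Foxp1 was highest at 0.50. Ppp1r1b is itself 1 of these markers. The part of the others in the ratios of Adcy5 and Ppp1r1b was not tested.

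**Figure D5:**
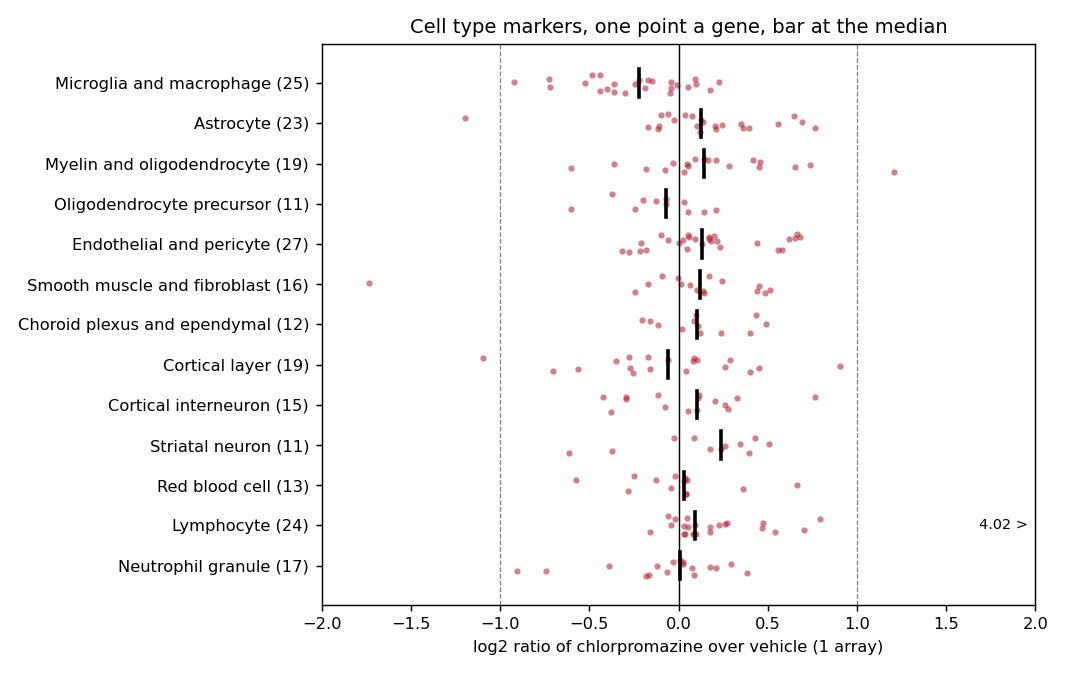
Log2 ratio with chlorpromazine (horizontal axis) for marker genes of 13 cell types, 1 point for each gene, with the number measured in brackets, a black bar at each list's median and dashed lines at 2-fold. The microglia bar lies lowest at -0.22 and the striatal bar highest at 0.24; Cd69 lies outside the axis, its value of 4.02 being written at the edge.

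Immune lists had medians on both sides of 0 with chlorpromazine. The 20 Toll-like receptors and adaptors had a median of 0.17, with and without Tlr2. Tlr1, which pairs with Tlr2, was at -0.63 with chlorpromazine, against 0.45 with thioridazine, 0.42 with olanzapine and 0.54 with quetiapine, and Tlr6, its alternative partner, at 0.69, against 0.32, -1.13 and 0.93. The adaptor Traf6 averaged 0.52, with features at -0.00 and 1.04. The part of the microglia markers, 20 of 25 of them below 0, in the ratios of Tlr1 and Tlr2 was not tested. Interferon-stimulated genes had a median of -0.06 over 30 genes, against 0.41, -0.00 and 0.21, with Oas2, a sensor of double-stranded RNA, lowest at -0.95 and Ifitm3, a block to viral entry, highest at 0.48. MHC genes had a median of 0.06; Ciita, the master activator of class II, was at 0.81 beside Tap2. Acute-phase and cytokine-response genes had a median of 0.10, against 0.57, 0.43 and 0.83, with haptoglobin, Hp, at 1.22 with chlorpromazine, against 1.47, 0.9999 and 3.49, and Orm2 at 0.83.

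Of 24 glucocorticoid-responsive genes 20 lay above 0 with chlorpromazine (51.4% of all genes), with a median of 0.19, against 0.03 with thioridazine, 0.34 with olanzapine and 0.85 with quetiapine. Cebpd, an inflammation-responsive transcription factor, was at 0.86 with chlorpromazine, against 1.69, 1.20 and 2.63, the kinase Map3k6 at 0.67 and the ion transport kinase Sgk1 at 0.53. Hsd11b2, which inactivates glucocorticoids, was at 1.09, against 1.44, 0.997 and 1.07. The 33 genes of the heat shock and unfolded protein responses had a median of -0.10, closer to 0 than the -0.39, -0.30 and -0.57 of the other arrays, with Manf, a secreted factor of the endoplasmic reticulum, lowest at -0.63.

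Drug-metabolising P450 genes had a median of 0.02, with Nr1i3, the nuclear receptor that senses foreign compounds in liver, at -1.08 and Cyp2b9 at 0.86. Antioxidant genes had a median of 0.02, with the reductase Txnrd1 at -0.98 and Gpx4, which repairs oxidised membrane lipids, at -0.65. Insulin and IGF signalling genes had a median of 0.08, with Igf1 at 1.01 with chlorpromazine, against 0.87, 0.30 and 0.27, and Pik3r1, the regulatory subunit of its kinase, at 0.75. Clock genes had a median of 0.07, with Cry1 at 0.61. The partners of 2 of the most extreme genes had other ratios. Of 10 genes of the BBSome and its partners, Bbs1 included, 8 lay below 0 with chlorpromazine (48.6% of all genes). The median of the 10 was -0.14, against -0.22, -0.24 and -0.31 with thioridazine, olanzapine and quetiapine. Desmosome genes without Pkp1 had a median of 0.06. The claudins of tight junctions had a median of -0.06, from Cldn16 at -1.01 to Cldn1 at 1.07. Receptor genes of smell and taste, vomeronasal ones included, which cortex hardly transcribes, had a median of 0.04 over 849 genes. Of these, 308 lay below 0 (36.3%, against 48.6% of all genes). At 1.5-fold, 16 were above vehicle (3.6% of all genes) and 24 below (3.31%). The part of this lean above 0 in the side counts of other lists was not tested.

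Whether chlorpromazine differed from the other drugs was tested with limma, setting its array against the mean of the other 3. The spread between those 3 drugs, given at their own doses, stands in for the error. It is not replicate error, and no second chlorpromazine array exists to measure that. No gene of 16139 passed at an adjusted p of 0.05 (0% called; lowest limma adjusted p = 0.9994), and 581 had an unadjusted p under 0.05 (3.6%), 335 higher and 246 lower with chlorpromazine, where 807 are expected of unchanged genes. In simulated data of this design, 0% of differences of 1, 56% of 2, 54% of 3 and 42% of 4 log2 units were recovered (50 genes each), with 1 false call. The simulated noise was normal, with the spreads shuffled between genes, and 200 genes were changed at once. The shares recovered need not hold for the measured genes.

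The 10 genes a side of lowest unadjusted p are given as differences in log2 ratio from the other drugs' mean, with no interval, since they were picked for a small spread between those drugs. All 20 had a limma adjusted p of 0.999 and did not pass. Genes without a value on every array, such as Abat, Rbm47 and Cd4, were not tested. Pkp1 differed by -4.37 and Tent4b by -2.26. Fcer1g, the signalling chain of Fc receptors on myeloid cells, was at -0.44 with chlorpromazine, against 1.10, 0.94 and 0.96 with thioridazine, olanzapine and quetiapine. Tlr1 differed by -1.10. Rab5c, a small GTPase of early endosomes, was at -1.502 with chlorpromazine, against 0.17, 0.17 and -0.05, and the zinc finger gene Zc3h6 at -1.80, against 0.86, 1.45 and 0.70. Also among the lower were Serpina4-ps1, Sobp, Csf2rb2 and Tubb6.

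On the higher side Cd69 differed by 4.38 and Plcb1, the phospholipase downstream of muscarinic and serotonin receptors in cortex, by 1.86. Plcb1 was at 1.11 with chlorpromazine, against -0.88 with thioridazine, -0.53 with olanzapine and -0.85 with quetiapine. Pla2g7 differed by 1.43, Fuca1 by 1.13 and Hpca, the neuronal calcium sensor hippocalcin, by 0.996. The splicing factor Cwc22 was at 0.19 with chlorpromazine, against -1.70, -1.996 and -1.74, so that the distance from vehicle lay on the other drugs' side. Uxs1, Zan, Cep76 and Acsl5 were the others named by the lowest p.

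Set against the mean of the other drugs, 53.0% of all genes lay lower with chlorpromazine, with a median difference of -0.02. Of the cytosolic ribosomal protein genes 54 of 69 lay lower (median difference -0.12), of microglia markers 19 of 25 (-0.23), of interferon-stimulated genes 26 of 30 (-0.34) and of acute-phase genes 20 of 25 (-0.48). Of heat shock genes 8 of 33 lay lower (0.22), and of the 34 complex I genes 15 (0.01). Of the 37 lysosomal hydrolases 27 lay lower (-0.15), and of the 20 Toll-like receptors and adaptors 10 (0.00). Relative to vehicle, acute-phase genes had a median of 0.10 with chlorpromazine, against 0.57, 0.43 and 0.83 with thioridazine, olanzapine and quetiapine. Heat shock genes had -0.10, against -0.39, -0.30 and -0.57, and interferon-stimulated genes -0.06, against 0.41, -0.00 and 0.21. For acute-phase and heat shock genes the larger distance from vehicle thus lay on the other drugs' side. The lists given here are only some of the 61 described, and no list was tested as a whole.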

How the data were processed

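RNA of chlorpromazine-injected and vehicle-injected mice was compared on 1 two-channel array, beside 3 arrays of other drugs. Per the labels, the authors used Agilent Feature Extraction 7.1 and normalised the dyes by LOWESS on features that passed a filter on rank consistency. Each deposited value was taken to be a log10 ratio, drug over vehicle, a scale and direction not stated for the table; the median deposited value of the chlorpromazine array was 0. The number of arrays limits the precision.

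From the deposited log10 values, 367 exact zeros on the chlorpromazine array were treated as not measured, ratios were turned into log2, and a gene's features were averaged. Of 22393 features 18218 had 1 gene symbol in the platform annotation; 18175 took their current symbol by Entrez identifier from RefSeq (GRCm38.p6), 43 kept the platform's name, and 4159 with no symbol and 16 with several were set aside. Promoter windows of 300 bases are RefSeq's and matched 13111 measured genes.

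Genes past 2-fold and 1.5-fold were counted, and 61 gene lists were described by counts and medians. The members and lists were chosen with earlier results of these data known. Chlorpromazine was set against the mean of the other 3 drugs with limma 3.58.1 in R 4.3.3 over 16139 genes measured on all arrays, with Benjamini-Hochberg adjustment, checked on simulated data. Named are the 15 highest and 15 lowest genes, genes whose features all passed 2-fold, up to 3 members at either end of a list, all of short lists where they bear on a result, and the 10 genes a side with the lowest p; clone-style names were left out. The further genes named (such as 2610507B11Rik, Nrcam, Smo, Nck2, the repeated spots and other list members) were chosen after their values were seen. Alternatives were another log base, zeros kept, centring, scaling, feature choice, fold threshold, moderation and leaving out each other drug.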

Additional observations from a re-analysis of the deposited data

Results flagged for a closer look

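The 69 cytosolic ribosomal protein genes had a median log2 ratio of -0.12 with chlorpromazine, against 0.03 with thioridazine, 0.05 with olanzapine and 0.01 with quetiapine. The list drew attention because the chlorpromazine median lay on the other side of vehicle from the medians of all 3 other arrays. Those 3 medians were themselves close to vehicle. Over all genes the medians were 0.01 with thioridazine, 0.02 with olanzapine, 0.01 with quetiapine and 0.01 with chlorpromazine. The difference between the arrays was not tested for the list as a whole, and each drug has 1 array.

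Features with no gene symbol or with several take no part in the gene comparisons, yet they held many low ratios. Of 3998 such features measured on the chlorpromazine array, 629 were at least 2-fold below vehicle and 33 at least 2-fold above, together 16.6%, against 1.81% of the 18028 features with 1 symbol. Their median log2 ratio was -0.02, and the lowest was -5.48. On the other arrays 651 features of this kind were 2-fold below with thioridazine, 670 with olanzapine and 648 with quetiapine. Which of them are control or unannotated spots was not determined.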

How the results depend on the processing

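The number of genes 2-fold above vehicle with chlorpromazine was 130, and it was 2 with the values taken as log2 already, 324 with the arrays scaled to 1 median absolute deviation and 589 at 1.5-fold. The number below was 147, and the same settings gave 1, 307 and 542. With zeros kept, the array centred, the feature nearest 0 taken for each gene or every feature its own row, the counts ran from 126 to 155 above and from 145 to 171 below. The limma contrast with the other 3 drugs called 0 genes under the main setting and all 9 alternatives, with 385 to 1176 genes at an unadjusted p under 0.05 (581 in the main setting); leaving out quetiapine gave 918 and leaving out thioridazine 385. Of the gene values, differences and list medians recomputed, 1 changed sign: the median of the dopamine signalling partners, -0.000708, was 0.0101 with the feature nearest 0 taken for each gene. Of the values of the 30 most extreme genes, those recomputed with another base or with scaling moved by construction (60 values), and the other 90 did not. Of the list medians recomputed 33 moved and 276 did not, 25 of the 33 with the values taken as log2. Lists without their most extreme member were added after seeing the data: complex II without Sdhd moved to -0.26, against -0.06 with it, while the lists without Tlr2, Cd69 or Pkp1 stayed at 0.17, 0.09 and 0.06. No paired analysis was possible because each drug has 1 array and its number only names it. With ratios alone, how far a spot lay above background is unknown.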
